A study of Mus musculus with 53 samples.

Results

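SOX2 binding was compared between SOX2+ cells sorted from KOSR culture and cells kept in the naive media 2iLIF and NACL, using the 7 SOX2 CUT&RUN peak lists that fit this description among 35 lists and 53 samples of the series. SOX2+ stands for the single-positive population of the KOSR culture, which also holds double-positive (DP) cells that express SOX2 and GATA6 together. Members were regions of the genome. The peaks of all 7 lists were merged wherever they shared 1 bp, and the libraries holding a peak in each region were counted on each side. This gave 38946 regions, of which 536 (1.38%) were held by all 3 SOX2+ libraries and by no naive library, called SOX2+-only here, and 516 (1.32%) were held by all 4 naive libraries and by no SOX2+ library, called naive-only. The SOX2 peaks themselves chose these regions, so their presence and absence is a description and carries no test.

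All cells came from SGGC mouse embryonic stem cells (ESCs), a line made from E14JU ESCs. It carries a SOX2-GFP and a GATA6-mCherry reporter and still holds the resistance cassettes of the targeting. The SOX2+ libraries are named A, A1 and B, all with clone B12, and their cells were sorted by fluorescence. The naive libraries were 1 each of clones B9 and B12 in 2iLIF, which combines the MEK inhibitor PD0325901, the GSK3 inhibitor CHIR99021 and LIF, and 1 each of the same clones in NACL, which combines Activin A, CHIR99021 and LIF in N2B27. KOSR stands for KnockOut Serum Replacement, and its further composition is not stated in the labels or the study's methods. Cells had spent at least 4 passages in their medium. The source name of the NACL library of clone B12 gives no medium and names IgG beside SOX2, so its medium was taken from its title. Medium and reporter gate are tied together on the KOSR side and cannot be told apart. Clone B9 was on the naive side only, so clone is partly tied to side as well. Nothing in the labels says whether A, A1 and B, or B9 and B12 within a medium, were independent cultures beyond these names.

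SOX2 is an HMG-box transcription factor that bends DNA at short sites of the CATTGT and CTTTGT type and pairs with OCT4 (gene Pou5f1) on composite sites that control Sox2, Pou5f1, Nanog and other genes of the pluripotency network. In CUT&RUN, an antibody tethers micrococcal nuclease to the bound protein, and the short fragments it releases are sequenced. TEAD factors are the DNA-binding partners of the Hippo effectors YAP and TAZ, with Ccn1 and Ccn2 as their best known targets. TCF/LEF factors are the partners of beta-catenin, which accumulates when GSK3 is inhibited, with Sp5, Notum and Axin2 as known targets.

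The sequences at the signal maxima of one-sided regions are shown first. Each line gives the nearest protein-coding gene, the 200 bp window around the strongest signal maximum (GRCm38, plus strand) and its sequence. Capitals mark every match, on either strand, to the 15 motif strings searched. The first set is SOX2+-only. The windows near Tuba1a and Cntnap5a had the highest ranked signal. Those near Cntnap5a, Prex1 and Frmpd1 were the highest ranked with the TEAD string (GGAATG, or CATTCC on the other strand). The last is intergenic, and its nearest coding start, 52.8 kb away, is that of Ccn1, a Hippo target.
Tuba1a, chr15:98987098-98987297: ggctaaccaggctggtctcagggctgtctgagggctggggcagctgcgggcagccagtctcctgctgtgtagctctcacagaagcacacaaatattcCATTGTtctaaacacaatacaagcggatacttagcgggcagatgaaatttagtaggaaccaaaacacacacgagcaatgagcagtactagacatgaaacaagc
Cntnap5a, chr1:113970835-113971034: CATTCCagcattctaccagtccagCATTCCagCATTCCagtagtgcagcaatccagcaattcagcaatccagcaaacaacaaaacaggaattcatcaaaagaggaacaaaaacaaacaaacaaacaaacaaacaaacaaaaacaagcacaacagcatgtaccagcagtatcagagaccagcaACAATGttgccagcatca
Prex1, chr2:166489158-166489357: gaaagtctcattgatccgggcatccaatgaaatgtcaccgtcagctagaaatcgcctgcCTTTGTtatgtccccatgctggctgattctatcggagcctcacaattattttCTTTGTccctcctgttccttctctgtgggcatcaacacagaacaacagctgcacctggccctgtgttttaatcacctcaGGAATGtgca
Frmpd1, chr4:45198434-45198633: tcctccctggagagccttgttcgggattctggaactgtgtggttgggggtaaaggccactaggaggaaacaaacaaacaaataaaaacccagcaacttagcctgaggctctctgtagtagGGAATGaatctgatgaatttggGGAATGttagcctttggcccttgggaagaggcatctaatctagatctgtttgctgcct
Ccn1, chr3:145702838-145703037: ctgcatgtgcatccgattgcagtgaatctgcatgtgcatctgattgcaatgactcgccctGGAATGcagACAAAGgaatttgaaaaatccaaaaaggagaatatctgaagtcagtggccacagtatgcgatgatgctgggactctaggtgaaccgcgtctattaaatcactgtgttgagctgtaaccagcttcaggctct
The second set is naive-only. The windows near Gpd2 and Ndufs4 ranked 1 and 3 by signal. The region ranked 2, near Mcc, held none of the strings searched and is not printed. Those near Gpd2, Prkcz and Cd83 were the highest ranked with the TCF/LEF string (CTTTGAT, or ATCAAAG on the other strand). The last is intergenic, and its nearest coding start, 30.7 kb away, is that of Sp5, a Wnt target.
Gpd2, chr2:57244115-57244314: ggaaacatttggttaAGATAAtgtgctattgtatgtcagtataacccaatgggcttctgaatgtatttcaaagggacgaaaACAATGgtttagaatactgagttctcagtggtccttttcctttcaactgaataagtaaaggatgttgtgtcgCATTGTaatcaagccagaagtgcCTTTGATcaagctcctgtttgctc
Ndufs4, chr13:114303515-114303714: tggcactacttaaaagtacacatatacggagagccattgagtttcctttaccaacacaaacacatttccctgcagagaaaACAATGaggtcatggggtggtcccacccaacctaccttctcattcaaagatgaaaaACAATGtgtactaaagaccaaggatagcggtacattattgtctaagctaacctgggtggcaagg
Prkcz, chr4:155315214-155315413: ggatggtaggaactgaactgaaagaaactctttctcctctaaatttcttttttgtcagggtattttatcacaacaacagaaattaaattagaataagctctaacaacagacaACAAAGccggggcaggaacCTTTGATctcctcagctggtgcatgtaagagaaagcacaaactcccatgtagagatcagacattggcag
Cd83, chr13:44210209-44210408: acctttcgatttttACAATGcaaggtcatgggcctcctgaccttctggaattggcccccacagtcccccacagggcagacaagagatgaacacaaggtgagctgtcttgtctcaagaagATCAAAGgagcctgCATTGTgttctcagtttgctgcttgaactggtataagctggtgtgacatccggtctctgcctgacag
Sp5, chr2:70443831-70444030: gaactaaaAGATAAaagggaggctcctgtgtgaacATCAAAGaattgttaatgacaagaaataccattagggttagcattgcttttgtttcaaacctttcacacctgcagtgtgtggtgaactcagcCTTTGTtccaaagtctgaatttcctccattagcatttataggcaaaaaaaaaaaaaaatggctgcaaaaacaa
Cd83, Ccn1 and Sp5 were chosen for this display after their values were seen. The Cntnap5a window held the TEAD string 3 times and Frmpd1 held it 2 times, while Tuba1a held a SOX string alone. None of the windows printed for the naive side held the TEAD string, and none of those printed for the SOX2+ side held the TCF/LEF string. Several of these windows were picked for holding the TEAD or the TCF/LEF string, so the display does not compare the sides.

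The comparison of the sides rests on the whole sets. The TEAD string lay within 100 bp of the signal maximum in 194 of 536 SOX2+-only regions (36.2%, exact 95% binomial interval 32.1 to 40.4%) and in 50 of 516 naive-only regions (9.69%, 7.28 to 12.6%), against 18.6% of all merged regions. The TCF/LEF string went the other way, with 18 SOX2+-only regions (3.36%, 2.00 to 5.26%) and 96 naive-only regions (18.6%, 15.3 to 22.2%), against 5.37% of all merged regions. Windows of the same length centred 500 bp to either side held the TEAD string in 11% around SOX2+-only and 11.4% around naive-only regions, and the TCF/LEF string in 3.45% and 3.88%. The intervals of TEAD at naive-only maxima and of TCF/LEF at SOX2+-only maxima held the flank value. In the regions held by all 7 libraries TEAD was in 18.1% of windows at the maximum and 11.3% in the flanks, and TCF/LEF in 4.65% and 3.48%. These are counts over regions of the same 7 libraries, so the intervals cover counting error only.

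Both strings were usually single. Of the SOX2+-only windows with TEAD, 151 had 1 match and 43 had more, and 61.6% of the 245 matches lay within 50 bp of the maximum. Of the naive-only windows with TCF/LEF, 85 had 1 match and 11 had more, and 61.7% of the 107 matches lay within 50 bp. Both strings were found together in 3 SOX2+-only and 7 naive-only windows. A SOX or SOX-OCT string was in 73.3% of SOX2+-only and 72.9% of naive-only windows, against 65.4% of all merged regions. The TEAD string was in 34.9% of SOX2+-only windows with such a SOX string and in 39.9% of those without one. Leaving out windows with 50% or more of their bases soft-masked as repeats gave 36.9% for TEAD in 442 SOX2+-only regions and put TCF/LEF in 92 of 460 naive-only regions, and leaving out promoters gave 37.5% and 18.4%.

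The other strings differed less. The first SOX string (CATTGT) was in 41.2% of SOX2+-only and 31.0% of naive-only windows, and the second (CTTTGT), which shares its first 5 letters with the TCF/LEF string, was in 51.3% and 54.5%. The OTX string (TAATCC) was in 12.9% and 7.56%. The core of the SOX-OCT composite site (TTGTNATGC) was in 2.05% of SOX2+-only and 3.49% of naive-only windows, and both shares were far under the 10.5% of the 4906 regions held by all 7 libraries. OCT (ATGCAAAT, which shares ATGC with the composite core) was in 3.54% and 5.23%, against 6.75% of the regions held by all 7. The GATA string, written AGATAA, was in 14.4% of SOX2+-only and 13.2% of naive-only windows, and the string of AP-1, written TGANTCA, was in 5.04% and 8.33%. The strings for ESRRB (TCAAGGTCA), KLF (CCACACCC), STAT (TTCCNGGAA), ETS (CCGGAAGT), GRHL (AACCNGTT) and the GC box (GGGCGGGG) were in at most 3.10% of either one-sided set. ETS was in 0 of 536 SOX2+-only windows, where the exact 95% interval reached up to 0.686%. A match is a string in the genome and not a measured site of the factor it is named for.

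**Figure D1:**
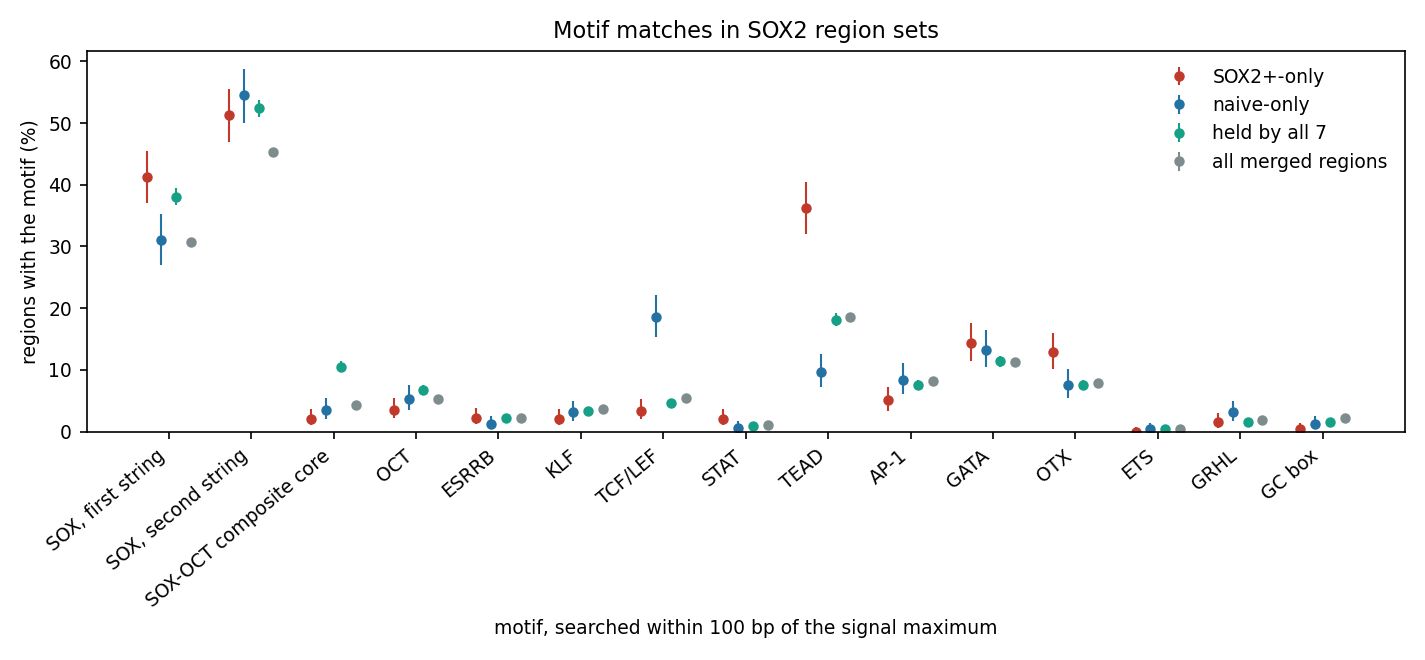
Percentage of regions with each motif string within 100 bp of the signal maximum (y axis) for the 15 strings (x axis), in SOX2+-only, naive-only, all-7 and all merged regions, with exact 95% binomial intervals. TEAD stood at 36.2% in SOX2+-only regions, TCF/LEF at 18.6% in naive-only regions and the SOX-OCT core at 10.5% in regions held by all 7.

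The strings were then counted in all SOX2 peaks of each library, of which the one-sided regions are a small part. The TEAD string was in 23.3, 22 and 22.5% of the peaks of SOX2+ A, A1 and B, in 15.2 and 17% of 2iLIF B9 and B12, and in 16.6 and 18.7% of NACL B9 and B12. Every SOX2+ library stood above every naive library, with means of 22.6% ± 0.659 (SD, n = 3) and 16.9% ± 1.46 (SD, n = 4). The TCF/LEF string was in 3.89, 4.15 and 3.87% of the SOX2+ lists, in 8.07 and 6.80% of the 2iLIF lists and in 5.25 and 5.17% of the NACL lists. The sides again did not overlap, and within the naive side both 2iLIF lists stood above both NACL lists.

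Of the 15 strings, 6 had library shares that did not overlap between sides. Besides TEAD and TCF/LEF these were OTX (8.84% ± 0.191 in SOX2+, n = 3, and 7.43% ± 0.143 in naive, n = 4) and STAT (1.24% ± 0.136 and 0.927% ± 0.107), which were higher in SOX2+, and AP-1 (7.28% ± 0.284 and 8.47% ± 0.754) and GRHL (1.45% ± 0.0861 and 2.00% ± 0.254), which were lower. Each of the 6 had an exact two-sided permutation p of 0.0571, the smallest that 3 against 4 libraries can give with 35 splits, and an adjusted p of 0.143 over the 15 strings, so none could pass 0.05. With 250 bp to each side of the maximum the count was 4, and the shares of AP-1 and GRHL then overlapped between sides (exact permutation p of 0.229 and 0.114). Shares of the SOX strings overlapped, at 34.3% ± 1.9 (n = 3) and 33.3% ± 2.92 (n = 4) for the first and 49.0% ± 1.9 and 48.3% ± 2.96 for the second.

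The 3 SOX2 libraries of DP cells, sorted from KOSR culture and also named A, A1 and B, had no part in choosing the regions. Their peaks held the TEAD string in 23.2, 24.1 and 24.2% (A, A1 and B) and the TCF/LEF string in 3.79, 4.02 and 3.41%. On both strings the DP lists lay on the SOX2+ side of all 4 naive lists. The DP lists were not part of the test between sides.

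**Figure D2:**
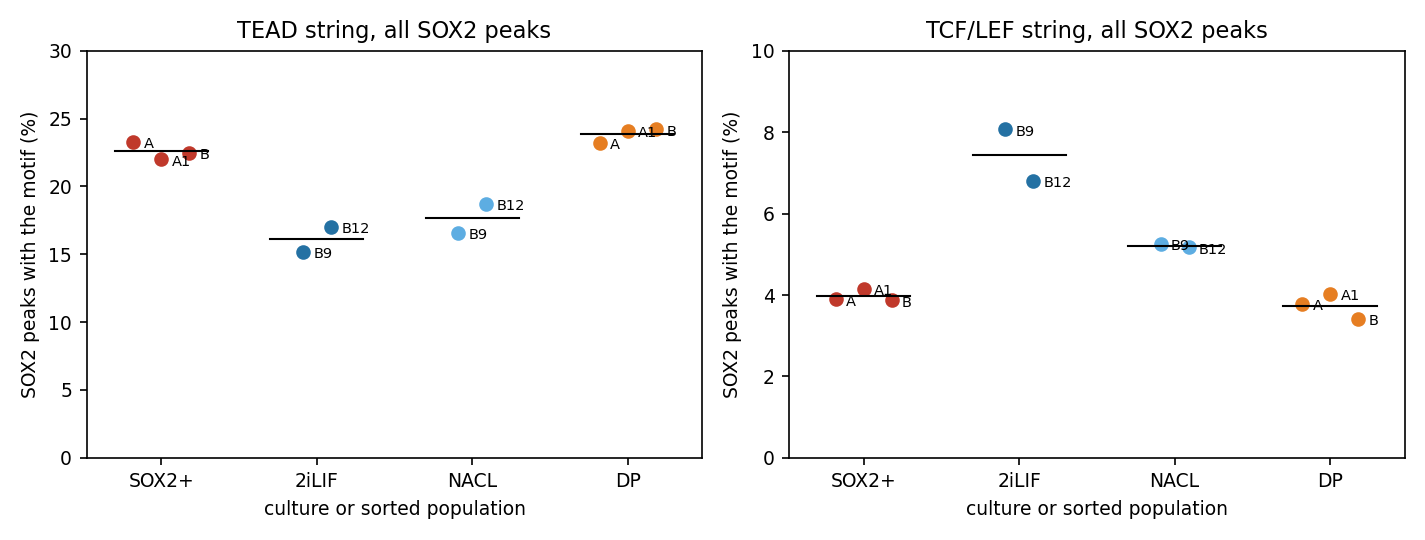
Percentage of all SOX2 peaks of a library with the TEAD (left) and TCF/LEF (right) string (y axes), by culture or sorted population (x axes). Points are libraries, labelled by library name or clone, and lines are group means. For TEAD the SOX2+ points lie between 22 and 23.3% and the naive points between 15.2 and 18.7%.

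The regions held by all 7 libraries gave a further view, since presence did not separate them. Within each library their highest signal was ranked among these 4906 regions, because signal heights of separate libraries share no common scale. All 3 SOX2+ ranks lay above all 4 naive ranks in 680 regions (13.9%), and all lay below in 660 (13.5%). The TEAD string was in 24.1% of the former (20.9 to 27.5%) and 12.4% of the latter, with 18.0% where ranks overlapped. The TCF/LEF string was in 2.21% (1.24 to 3.61%) and 8.03% (6.07 to 10.4%), with 4.49% where ranks overlapped. The contrast between strings thus had the same direction in regions that both sides held, at smaller size.

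The 2 naive media differed in the TCF/LEF string and overlapped in the TEAD string. Each library was limited to its 8203 strongest peaks by maximum signal, the number in the smallest list. Then 323 regions were held by all SOX2+ and NACL libraries and by no 2iLIF library, and 88 by all SOX2+ and 2iLIF libraries and by no NACL library. At all peaks these counts were 1331 and 11, and 114 regions were held by 2iLIF alone and 1715 by NACL alone. At 8203 peaks the order of the last 2 sets was turned. There the TCF/LEF string was in 16.2% (13.6 to 19.2%) of 703 regions held by 2iLIF alone and in 6.14% (3.84 to 9.23%) of 342 held by NACL alone. The TEAD string was in 13.2% (10.8 to 16%) and 10.2% (7.23 to 13.9%) of these sets, whose intervals overlap. It was in 29.1% (24.2 to 34.4%) of the regions that SOX2+ and NACL held without 2iLIF and in 20.5% (12.6 to 30.4%) of those that SOX2+ and 2iLIF held without NACL, whose intervals overlap too. The overlap of single lists had the same order. At 8203 peaks, 76.8 to 79.6% of the peaks of a SOX2+ list overlapped another SOX2+ list, 62.5 to 69.2% overlapped a NACL list and 55.5 to 61.8% a 2iLIF list. The 2iLIF and NACL lists overlapped each other by 64.6 to 70.2%, a range that overlaps that of SOX2+ with NACL.

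Peak number set how many regions could be one-sided. The lists held 16819, 20609 and 10513 peaks in SOX2+ A, A1 and B, 13177 and 8203 in 2iLIF B9 and B12, and 29623 and 17111 in NACL B9 and B12. Read depth is unknown. At 8203 peaks each there were 16155 regions, with 570 SOX2+-only (3.53%), 431 naive-only (2.67%) and 3257 held by all 7 (20.2%). Most one-sided regions of this smaller set had a weaker peak on the other side. Only 118 of the 570 (20.7%) and 115 of the 431 (26.7%) had no naive or no SOX2+ peak of any strength, and 64 of the 431 had a weaker peak in every SOX2+ library. The 118 and 115 regions are called strict here. The counts at all peaks also rested on single lists. Without the short SOX2+ B list there were 1609 SOX2+-only regions in place of 536, and without the long NACL B9 list 1036. Without 2iLIF B12 there were 1129 naive-only regions in place of 516, and without NACL B12 924. At equal peak number the naive-only count of 431 was 735 without NACL B12, and 689 without 2iLIF B12, the list that sets the equal number, so that more peaks per library then entered. Just outside the rule, at all peaks, 768 regions were held by all 3 SOX2+ libraries and 1 naive library, 1299 by 2 SOX2+ libraries alone, 426 by all 4 naive libraries and 1 SOX2+ library, and 1067 by 3 naive libraries alone.

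**Figure D3:**
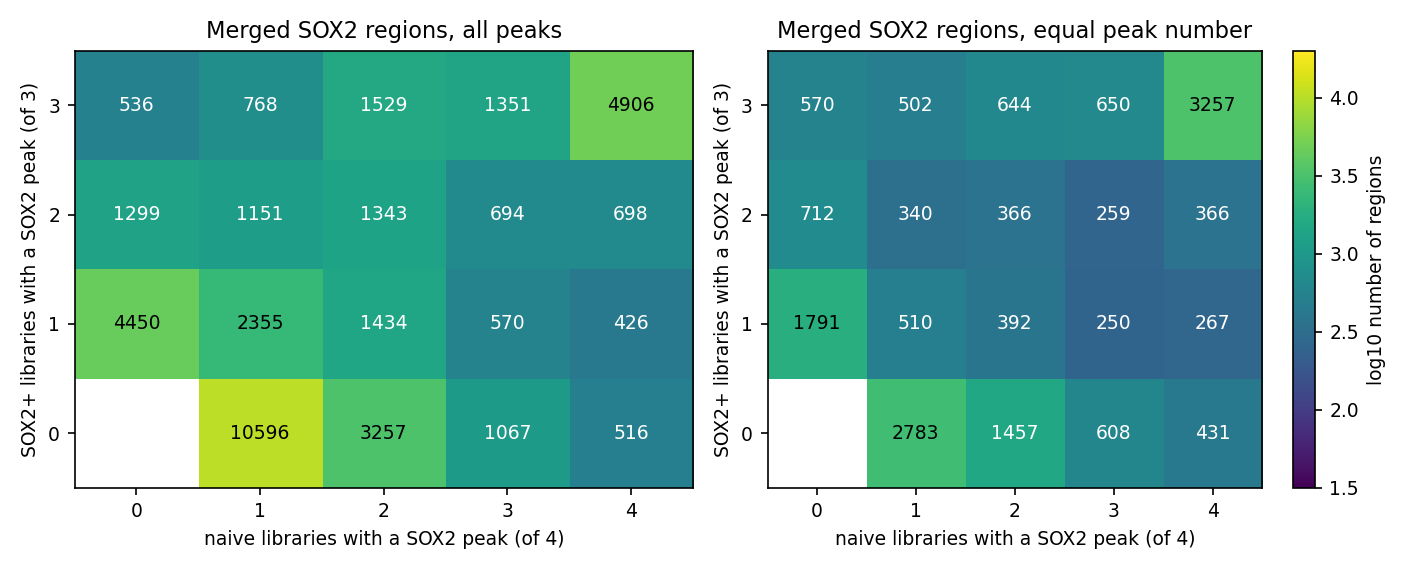
Number of merged SOX2 regions by how many of 4 naive libraries (x axes) and of 3 SOX2+ libraries (y axes) held a peak, at all peaks (left) and at 8203 peaks per library (right), coloured by log10 of the number. The corners give 536 and 516 one-sided regions at all peaks and 570 and 431 at equal peak number, beside 4906 and 3257 regions held by all 7.

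One-sided regions had lower signal ranks than the regions held by all 7. SOX2+-only regions had a median signal percentile of 44.1, 54.2 and 25 in A, A1 and B. Naive-only regions had 62.5 and 31.5 in 2iLIF B9 and B12 and 72.5 and 41.5 in NACL B9 and B12, while the regions held by all 7 had medians of 65.5 to 90.5 over the 7 libraries. Of the SOX2+-only regions 2, 6 and 0 were in the top 10% of lists A, A1 and B, and of the naive-only regions 37, 3, 29 and 4 were in that of 2iLIF B9, 2iLIF B12, NACL B9 and NACL B12. SOX2+-only regions were narrower than naive-only ones, with median widths of 377 and 539 bp. These regions merge the peaks of 3 and 4 libraries, and merging more peaks can widen a region. Regions held by all 7 had a median of 649 bp. The median peak widths of whole lists overlapped (309 to 327 bp in SOX2+ and 320 to 415 bp in naive lists).

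By position, SOX2+-only regions were nearer to genes. A signal maximum within 1 kb of an annotated start was found in 11.4% (8.82 to 14.4%) of SOX2+-only and 4.26% (2.69 to 6.38%) of naive-only regions, against 12.1% of all merged regions. The median distance to a protein-coding start was 22.4 kb and 41.6 kb, against 29.1 kb for all. Introns held 38.4% and 42.4%, and intergenic sequence 48.5% and 51.7%. Windows that were at least 50% soft-masked made up 17.5% and 10.9%, against 18.1% of all merged regions and 26.1% of the regions held by all 7. GC content was alike, with medians of 42.8 and 43.0%. Over all peaks the share within 1 kb of a start was 12.7, 14.9 and 12.0% in SOX2+ A, A1 and B, 10.3 and 10.1% in the 2iLIF lists and 13.7 and 11.7% in the NACL lists. The means of 13.2% ± 1.51 (n = 3) and 11.5% ± 1.67 (n = 4) overlapped in range, with an exact permutation p of 0.229.

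The strict regions with the highest signal on the SOX2+ side lay near genes of many kinds. The strongest lay between genes on chromosome 15, 33.3 kb from Tuba1a, an alpha-tubulin. Its maximum signal was 36, 35 and 23 in SOX2+ A, A1 and B, with no naive peak. It held H3K27ac peaks in 2 of 2 SOX2+ and 4 of 4 naive libraries. The next, 1714 kb from Cntnap5a, a neurexin-family adhesion gene, reached 37, 35 and 21 and held DP SOX2 peaks in 3 of 3 libraries. Crybb2, a lens crystallin, followed at 4.09 kb with 20, 18 and 19. The rest of the top 12 were near Gm21863, Actn2, Prex1, Frmpd1, Pde4b, Cldn4, Hepacam, Tmem170b and Ttc14, with signals of 13 to 30. An H3K27ac peak of a SOX2+ library lay in 3 of these 12 regions (Tuba1a, Cntnap5a and Frmpd1), and one of a naive library in 7, beside 24.1% of all SOX2+-only regions with a peak in any SOX2+ library and 79.9% with one in any naive library. The TEAD string was in 4 of them (Cntnap5a, Prex1, Frmpd1 and Tmem170b).

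The 12 strict naive-only regions with the highest signal had lowest percentiles of 76.1 to 91.4, against 68.6 to 84.5 for the SOX2+ side. The region in an annotated promoter 5.51 kb from the nearest coding start of Gpd2, the mitochondrial glycerol-3-phosphate dehydrogenase, had a maximum signal of 94 and 54 in 2iLIF B9 and B12 and 59 and 35 in NACL B9 and B12, at or above the 91.4th percentile of each list. A region 68.6 kb from a start of Mcc, named for its mutation in colorectal cancers, had 106, 48, 92 and 29. A region 2.58 kb from Dusp1, a phosphatase that inactivates MAP kinases, had 52, 32, 86 and 27. One 29.5 kb from a start of Prkcz, an atypical protein kinase C, had 67, 40, 49 and 20. The others of the top 12 were near Ndufs4, Rbpms2, Cckbr, 1700056E22Rik, Dnase2b, Rtraf, Tox3 and Slc9a9, with signals of 18 to 76. All 12 held H3K27ac peaks in 4 of 4 naive libraries, beside 72.5% of all naive-only and 80.9% of the strict naive-only regions, and 1 of them (Rbpms2) held such a peak in 1 of 2 SOX2+ libraries. No DP SOX2 peak lay in any of the 12, beside 2.71% of all naive-only regions with one.

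**Figure D4:**
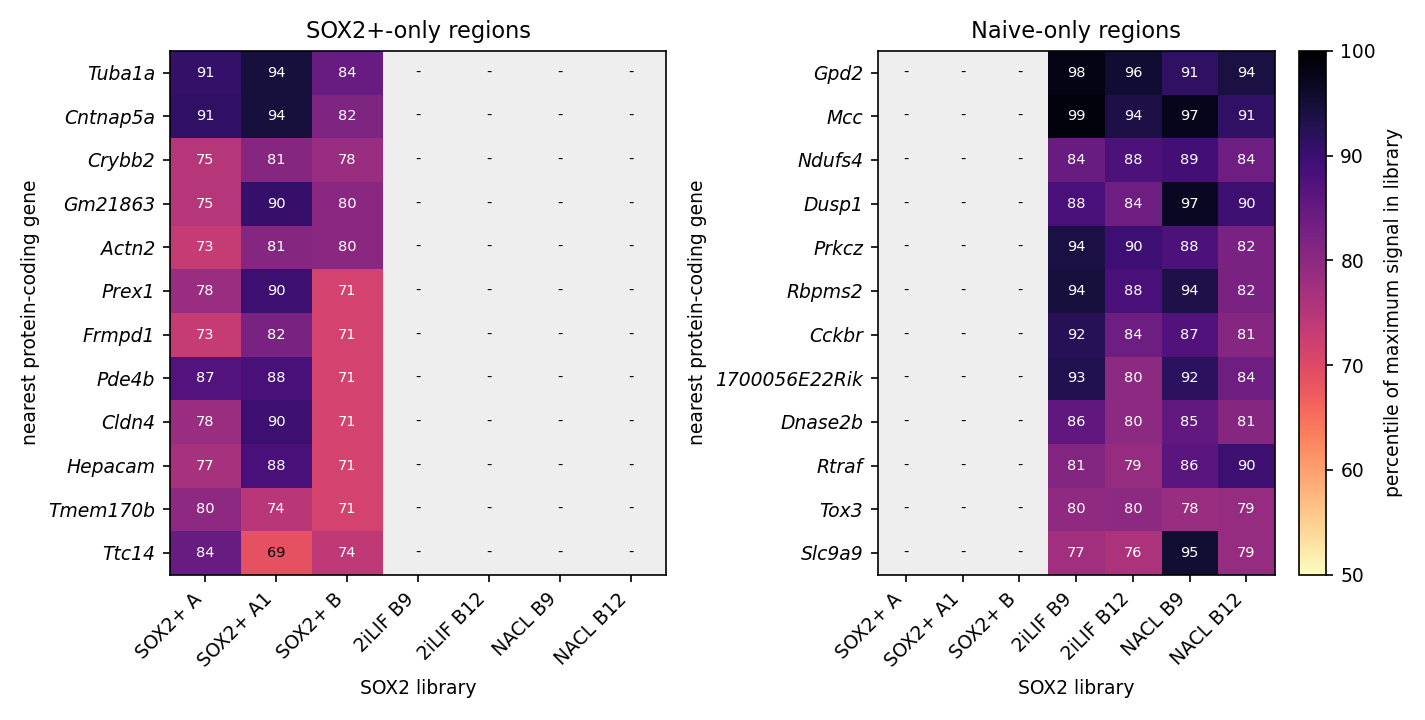
Signal percentile within each of the 7 SOX2 lists (columns) for the 12 highest ranked strict regions of each side (rows, by nearest gene), with a dash where the list held no peak. SOX2+ values run from 68.6 to 94.4 and naive values from 76.1 to 98.7.

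Few genes had several one-sided regions. In all, 507 of 11371 protein-coding genes with a region nearest to them (4.46%) had a SOX2+-only region and 477 (4.19%) a naive-only one. Cald1, which encodes the actin-binding caldesmon, Greb1l, Tanc1 and Trip12, a ubiquitin ligase, each had 3 SOX2+-only regions among 16, 11, 13 and 17 regions, and Tanc1 also had 1 naive-only region. Dpp6, a subunit of potassium channels, had 4 naive-only regions among 27, and Gm12728 and Lamc1 had 3 among 9 and 15. Lamc1 encodes the gamma chain of laminin, a component of basement membranes. Its naive-only regions had maximum signals of 9 to 53 over the naive libraries, and each held H3K27ac peaks in 4 of 4 naive libraries and in 2, 1 or 0 of 2 SOX2+ libraries. Among the many genes with 2 regions, alphabetical order put Abca13 next on the SOX2+ side and 1700015G11Rik and Abr on the naive side.

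One-sided regions were few near pluripotency genes, as they were over all genes (4.46% and 4.19%). Of 14 core pluripotency genes, 1 had a SOX2+-only region and 0 a naive-only one, and of 16 naive pluripotency genes 2 and 0 did. The Sox2 gene had 40 regions, of which 7 were held by all libraries, and its SOX2+-only region lay 332 kb away with signals of only 5, 4 and 5. Near Nr5a2 and Tfcp2l1, both transcription factors of the naive network, SOX2+-only regions had signals of 9 to 18 and 7 to 9. Pou5f1 had 3 regions held by all 7 among 5, Nanog 2 among 4, Klf4 4 among 17, Esrrb 1 among 10 and Otx2 2 among 13, and none of them had a one-sided region. Gata6, the driver of primitive endoderm, had 5 regions, the best of which was held by all 3 SOX2+ and by 2 naive libraries with signals of 9 to 12. Fgf5, a marker of formative epiblast, had 1 region with a peak in NACL B9 alone.

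Rank within the shared regions moved at several of these loci. Of 29 shared regions near core pluripotency genes, 11 ranked higher in every SOX2+ library than in every naive one and 2 ranked lower, against 13.9% and 13.5% of all shared regions. The median rank difference was 9.67 percentile points, against 0.719 over all shared regions, and the lists of FGF (32.2), DNA methylation (15), primitive endoderm (13.4) and glycolysis and hypoxia (9.83) had larger medians. The higher regions were 4 near Sall4, 3 near Sox2, 2 near Dppa2 and 1 each near Zfp281 and Fbxo15, and the 2 lower ones were near Nanog and Zfp281. The Sall4 region 23.5 kb from the start ranked at the 97.5, 97.3 and 96.2th percentile in SOX2+ A, A1 and B, at 68.8 and 49.8 in 2iLIF and at 62.5 and 63.9 in NACL. The 3 higher Sox2 regions lay 3.30, 74.0 and 107 kb from the start, and the last ranked at 79.3, 81.7 and 82.3 in SOX2+ and at 58.8 to 76.5 in the naive lists. Its neighbours did not go this way. The Sox2 region at 106 kb ranked at 8.87, 23 and 2.55 in SOX2+ and at 17.7 to 35.1 in the naive lists, and that at 110 kb at 72.2, 78.4 and 69.4 and at 68.2 to 77.5, so that ranks overlapped at both. The Nanog region 4.20 kb from the start went the other way, at 70.8, 60.4 and 48.9 in SOX2+ and 77.5 to 89.1 in the naive lists. Of 28 shared regions near naive pluripotency genes 2 were higher (Klf4 and Tbx3) and 5 lower (Prdm14, Klf2, Nr5a2 and 2 near Jam2). At Prdm14 the ranks were 39.2, 11.8 and 30.3 in SOX2+ and 79.7 to 96.5 in the naive lists.

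Hippo genes had few regions that separated the sides. Of 13 Hippo genes with a region, 2 had a SOX2+-only region (Ccn1 and Tead1) and 0 a naive-only one, and of 12 shared regions 3 ranked higher (Tead1, Ccn1 and Ccn2) and 0 lower, against 4.46% and 4.19% of all genes and 13.9% and 13.5% of all shared regions. Counts this small do not set the list apart. The SOX2+-only region 52.8 kb from Ccn1 had signals of 15, 10 and 16, and that 1.15 kb from the start of Tead1, a DNA-binding member of the family, had 11, 15 and 10. The shared Ccn2 region ranked at 97.3, 98.4 and 97.8 in SOX2+ and at 82.0 to 92.7 in the naive lists. Wnt genes were mixed. Of 20 Wnt genes, 0 had a SOX2+-only and 1 (Sp5) a naive-only region, and of 13 shared regions 3 were higher, all near Tcf7l2, and 3 lower (2 near Sp5 and 1 near Notum). The naive-only Sp5 region had signals of 44 and 9 in 2iLIF B9 and B12 and 26 and 5 in NACL B9 and B12. The shared Sp5 region 134 kb away ranked at 6.41, 23 and 25.2 in SOX2+ and at 71.9 to 98.1 in the naive lists. The Notum region, near the gene of a secreted Wnt inhibitor, ranked at 16.9, 26.8 and 30.3 in SOX2+ and at 68.9 to 89.7 in the naive lists.

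Signalling genes showed small numbers on either side, beside 4.46% and 4.19% of all genes with a one-sided region and 13.9% and 13.5% of all shared regions that ranked higher or lower. Among 17 ERK response genes 2 had a SOX2+-only region (Spred1 and Spry4, inhibitors of the pathway) and 0 a naive-only one. The Spry4 region was strict, with signals of 22, 25 and 8. Of 31 shared regions of this list 1 was higher (Dusp6) and 3 lower (Myc, Il17rd and Spred2). LIF and STAT3 genes had 1 each, both near Lifr, the LIF receptor, and 2 of 7 shared regions higher (Socs3 and Lifr). Nodal and Activin genes had SOX2+-only Skil and 2 naive-only regions near Acvr1b, an Activin receptor, with signals of 68, 25, 32 and 12 at the strict one, and of their 11 shared regions 1 was higher (Skil) and 2 lower (Smad7 and Lefty1). BMP genes had 1 naive-only region (Bmp2), and of 5 shared regions 1 was higher, near Bambi, where ranks were 64.5, 67.5 and 59.4 in SOX2+ and 1.43 to 13.2 in the naive lists. The 9 genes of the list of FGF ligands and receptors had no one-sided region. Of their 5 shared regions 2 were higher, near Fgfbp1 and Fgfbp3, which encode FGF-binding proteins and are neither ligands nor receptors.

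Markers of other cells that cultures could hold had one-sided regions on both sides, beside 4.46% and 4.19% of all genes, and 13.9% and 13.5% of all shared regions ranked higher or lower. Of 22 primitive endoderm genes 2 had a SOX2+-only (Lrp2 and Nid2) and 2 a naive-only region (Lama1 and Lamc1), and of 12 shared regions 1 was higher (Col4a2) and 3 lower (Lamc1, Lama1 and Dab2), with a median rank difference of 13.4 points against 0.719 over all shared regions. Of 11 trophoblast genes 2 (Eomes and Gata3) and 2 (Gata3 and Tfap2a) did, with 0 of 5 shared regions higher and 2 lower (Gata3 and Tfap2c). Of 18 neural transcription factor genes 1 (Irx3) and 1 (Meis1) did. The 2 genes of the 2-cell list with a region had no one-sided region, and their 1 shared region did not separate the sides. The formative epiblast list had 1 naive-only gene of 16 (Cdh2) and 0 of 29 shared regions higher with 3 lower. DNA methylation genes had Tet3 on the SOX2+ side and Tet2 on the naive side among 9, and 1 of 6 shared regions lower (Tet2). Glycolysis and hypoxia genes had Vegfa and Egln3 among 10, both in strict regions, with signals of 22, 11 and 14 at Vegfa and 20, 13, 51 and 19 at Egln3. Of 10 shared regions of that list 3 were higher and 3 lower. Adhesion genes had 2 naive-only of 14 (Cdh2 and Itga6), with 1 of 18 shared regions higher and 3 lower, and sterol and fatty acid synthesis genes 0 of 12. Irx3, Acvr1b, Egln3, Lamc1, Spry4 and Vegfa were named by rule, and the other list members were named after their values were seen. A gene with many regions has more chances of a one-sided one, and the lists were not tested.

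The 10 largest rank gaps in each direction were mostly near genes of no list, the exceptions being Bambi and Dppa2. The region 5.49 kb from Atp2b4, a plasma membrane calcium pump, ranked at 79.3, 67.5 and 71.5 in SOX2+ and at 6.97 to 17.4 in the naive lists, with a gap of 50.1 points between the nearest ranks. Trim24, Gnas, Crbn, Bambi, Sptb, Dppa2, St8sia1, Tbl1xr1 and 1810010H24Rik followed with gaps of 38.8 to 48.5 points. In the other direction the region 5.84 kb from a start of Cspp1, a cilia and spindle gene, had a gap of 61.8 points. It ranked at 4.17, 11.8 and 2.55 in SOX2+ and at 73.5 to 82.2 in the naive lists. St18, Eea1, Myo3a, Cd180, Tex36, Rtraf, Tmem132b, Wdr11 and Cxcl17 followed with 46.7 to 61.5 points. One-sided regions near these genes did not always have the same direction. Rtraf, lower in SOX2+ here, had 2 naive-only regions, 1 of them strict, while Myo3a, also lower, had 2 SOX2+-only regions, 1 of them strict, and Tbl1xr1, higher in SOX2+, had 1 naive-only and 1 SOX2+-only region.

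Histone marks came from separate libraries that the choice of regions did not use. H3K27ac marks active enhancers and promoters, and H3K4me1 marks enhancers whether active or poised. Of the SOX2+-only regions 17 and 21.5% overlapped an H3K27ac peak in SOX2+ A and B, and of the naive-only regions 6.78 and 5.81% did. In naive libraries the order was turned, with 50.2, 63.1, 49.6 and 61% of SOX2+-only regions and 90.3, 90.9, 85.5 and 84.3% of naive-only regions in 2iLIF B9, 2iLIF B12, NACL B9 and NACL B12. Of the regions held by all 7 SOX2 libraries, 34.7 and 37.6% overlapped a peak in SOX2+ A and B, and 91.3, 92.1, 91.0 and 92.3% in these naive libraries. The difference within a library, SOX2+-only minus naive-only, was 10.2 and 15.6 points in SOX2+ and between -40.1 and -23.3 points in naive libraries. The means of 12.9 ± 3.85 (SD, n = 2) and -31.8 ± 7.61 points (SD, n = 4) lay 44.7 points apart and the libraries did not overlap, with an exact permutation p of 0.133, the smallest that 2 against 4 libraries allow with 15 splits. The naive lists held 210904 to 401853 H3K27ac peaks and the SOX2+ lists 13514 and 14722. At 13514 peaks each the differences were 10.2 and 16 in SOX2+ and -24.1, -17.8, -10.3 and -3.19 in 2iLIF B9, 2iLIF B12, NACL B9 and NACL B12, so the sides did not overlap at equal peak number either, and the distance between the means was 27 points in place of 44.7. At that number the naive libraries covered 17.4 to 22.4% of SOX2+-only regions and the SOX2+ libraries 17 and 21.1%, so these shares overlapped, while naive-only regions were covered at 25.6 to 41.5% and at 5.04 and 6.78%. Regions held by all 7 were then covered at 48.3 to 54.4% in naive and at 34.7 and 37.1% in SOX2+ libraries.

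Region by region, H3K27ac was in 4 of 4 naive and 0 of 2 SOX2+ libraries at 328 naive-only regions (63.6%), at 68 SOX2+-only regions (12.7%) and at 40.6% of the regions held by all 7. The reverse pattern, both SOX2+ and no naive library, was found at 0 regions of any of these sets. This pattern was not counted at equal list length.

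H3K4me1 peaks overlapped 44.0 and 54.1% of SOX2+-only regions in SOX2+ A and B, and 45 and 48.3% of naive-only regions. In 2iLIF B9 and B12 and NACL B9 and B12 they overlapped 20.1, 43.5, 19.4 and 20.7% of SOX2+-only regions and 66.3, 83.1, 46.7 and 45.2% of naive-only regions. Of the regions held by all 7 SOX2 libraries they overlapped 80.7 and 83.9% in SOX2+ A and B and 54.4, 77.9, 40.8 and 42.9% in these naive libraries. At 24700 peaks each, SOX2+ A and B covered 30.4 and 34.3% of SOX2+-only and 27.1 and 25.2% of naive-only regions, and the naive libraries 15.3 to 29.7% and 41.9 to 64.3%, so the sides did not overlap in either set. At all peaks, within-library differences were -0.931 and 5.85 points in SOX2+ and -46.1 to -24.4 points in naive libraries, with means 36.8 points apart and an exact permutation p of 0.133. For this mark the SOX2+ lists were the longer ones, with 58085 and 78354 peaks against 24700 to 52599. H3K4me1 in both SOX2+ and no naive library was found at 49 SOX2+-only regions (9.14%), 4 naive-only regions (0.775%) and 7.70% of the regions held by all 7. The reverse, all naive and no SOX2+ library, was found at 0 SOX2+-only regions, 35 naive-only regions (6.78%) and 0.285% of the regions held by all 7. Neither pattern was counted at equal list length.

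**Figure D5:**
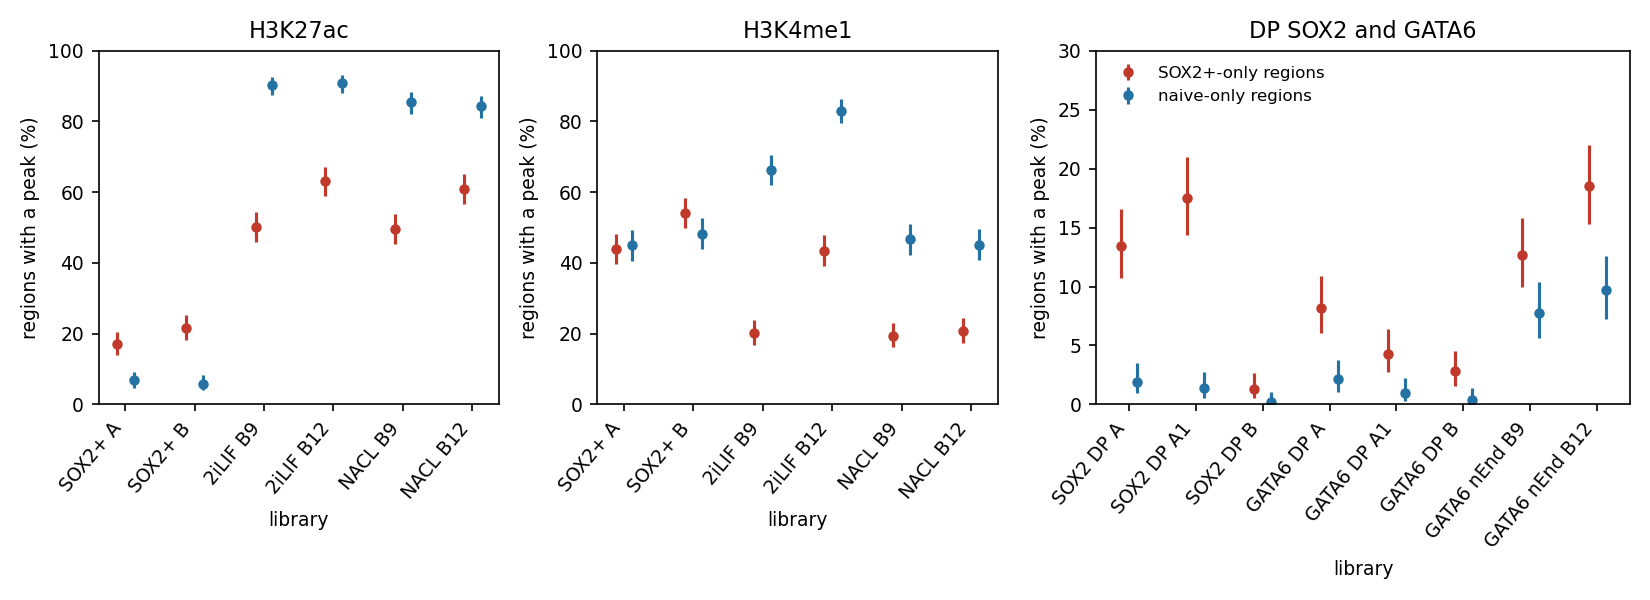
Percentage of SOX2+-only and naive-only regions that overlapped a peak (y axes) in each H3K27ac, H3K4me1, SOX2 or GATA6 library (x axes), with exact 95% binomial intervals. Naive H3K27ac libraries covered 84.3 to 90.9% of naive-only regions, and SOX2+ libraries covered 5.81 and 6.78%.

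SOX2 peaks of DP cells lay more often in SOX2+-only than in naive-only regions, by an amount that changed with peak number. The DP lists held 4859, 5320 and 1378 peaks in A, A1 and B. They overlapped 13.4, 17.5 and 1.31% of SOX2+-only regions and 1.94, 1.36 and 0.194% of naive-only regions, beside 51.7, 55.8 and 24.1% of regions held by all 7. The within-library difference was 11.5, 16.2 and 1.11 points, with a mean of 9.60 ± 7.71 (SD, n = 3) above 0 in 3 of 3 libraries and an exact sign flip p of 0.25, the smallest that 3 libraries allow. At the 1378 peaks of the smallest DP list the mean difference was 1.99 points, and without DP A1 it was 6.30. Any DP library held 120 SOX2+-only regions (22.4%) and 14 naive-only regions (2.71%). The DP and SOX2+ cells shared the medium and the clone.

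GATA6, which defines the DP population and primitive endoderm, was also nearer to the SOX2+ side. GATA6 peaks of DP A, A1 and B overlapped 8.21, 4.29 and 2.80% of SOX2+-only and 2.13, 0.969 and 0.388% of naive-only regions, a mean difference of 3.94 ± 1.91 points (SD, n = 3, exact sign flip p 0.25). Naive extra-embryonic endoderm (nEnd) cells were endoderm cultures of the same SGGC clones, for which the study names RACL medium. Their B9 and B12 lists overlapped 12.7 and 18.5% of SOX2+-only and 7.75 and 9.69% of naive-only regions, and 15.1 and 22.2% of regions held by all 7. Among the regions named above, Lrp2, a primitive endoderm gene, had DP GATA6 peaks in 3 of 3 libraries at its SOX2+-only region, and its signals there were 9, 11 and 6. The naive-only region near Tet2 had them in 2 of 3. The regions held by all 7 had a higher GATA6 share than SOX2+-only regions in 4 of the 5 libraries, the exception being DP B.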

How the data were processed

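CUT&RUN peak lists of SOX2 were compared between SOX2+ cells sorted from KOSR (n = 3) and cells in 2iLIF and NACL (n = 4), grouped by the labels. The deposited lists hold 1 row per SEACR peak, called by the authors in each library against IgG, with its summed signal (coverage), its highest signal and where the highest lay. Heights of separate libraries share no scale, so libraries were compared by ranks within a library. The signals printed for single regions are the deposited heights, each on the scale of its own library. The submitters' processing notes name cutadapt 1.18, Bowtie2 2.3.4.1, SAMtools 1.9, Picard 2.9.1, bedtools 2.27.1, deepTools 3.2.0 and SEACR, with mouse build mm10. The file names call the transcription factor lists stringent and the histone lists relaxed, while the study's methods state the reverse. Read depth is unknown, and its part in absent weak peaks was not tested.

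Peaks on 21 chromosomes were merged at 1 bp overlap and assigned to the nearest start of a protein-coding gene (GENCODE M21). Motif strings were searched on both strands of GRCm38 within 100 bp of the maximum. Members and lists were chosen with earlier results of these data known. Named were the 12 strict regions per side with the highest lowest percentile, strict regions near genes of the 18 lists, the 5 genes per side with most one-sided regions, the 10 shared regions per direction with the largest rank gap, and Sox2, Pou5f1, Nanog, Klf4, Esrrb, Otx2, Gata6 and Fgf5. Libraries were the replicates in exact permutation and sign flip tests, two-sided, at a threshold of 0.05, with Benjamini-Hochberg adjustment over 15 strings. Intervals are Clopper-Pearson at 95% and cover counting error only. Nothing in the labels says that libraries of a group are separate cultures, so p-values measure the spread between these samples, which may be technical. Alternatives were peak number, the ranking column, the overlap rule, window width, the naive medium, clone B12 alone and leaving out each library. Python 3.11.15, NumPy 2.4.6, SciPy 1.17.1 and matplotlib 3.10.9 were used, and the scripts were tested on simulated data. Other histone lists, among them those of 2 samples whose title and source name give different populations, were not used. Shared-region ranks of the neural transcription factor and sterol lists are not reported here.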

Additional observations from a re-analysis of the deposited data

Results flagged for a closer look

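The H3K27ac contrast between the region sets differed between the SOX2+ and naive libraries by 44.7 points, with opposite sign in every library of the 2 sides, and the exact permutation p of 0.133 was the smallest this design can give. The naive lists were far longer. At an equal number of mark peaks the difference was 27 points with the same p, and the shares of SOX2+-only regions, which were higher in every naive library at all peaks, then overlapped between the sides (17.4 to 22.4% in naive and 17 and 21.1% in SOX2+ libraries).

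The SOX string CTTTGT was compared as SOX2+ minus 2iLIF against SOX2+ minus NACL, and these differences were -4.30 points apart with opposite sign. The same comparison for the SOX-OCT composite core gave -1.60 points. In both cases every 2iLIF library stood above every NACL library, while the SOX2+ mean lay between. Neither difference was tested.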

How the results depend on the processing

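With clone B12 alone the TEAD and TCF/LEF differences between libraries were 4.77 and -2.02 points. Both differences kept their direction in all 10 alternatives run, at 4.77 to 6.37 and -2.74 to -1.77 points. Those for OTX, AP-1, STAT, GRHL, ESRRB, KLF and OCT, the share of peaks near a start (0.860 to 2.46 points), and the contrasts of H3K27ac (27 to 47.5), H3K4me1 (27.4 to 40.2), DP SOX2 (1.99 to 15.7), DP GATA6 (2.87 to 4.70) and nEnd GATA6 (4.93 to 8.78) kept theirs too, though AP-1 and GRHL no longer separated the sides at 250 bp. No exact test could pass 0.05 in these designs. The count of one-sided regions depended on peak number and on the libraries. SOX2+-only regions numbered 316 at 4101 peaks per library, 2615 with 2iLIF alone as the naive side, 1221 with clone B12 alone, which is the replicate block, and 549 to 1609 with a library left out. Naive-only regions numbered 236 at 4101 peaks, 1054 with 2iLIF alone, 2886 with NACL alone and 531 to 1129 with a library left out, and 483 to 735 at equal peak number. Fewer libraries to satisfy make more regions one-sided by construction. Differences near 0 changed sign. These were SOX CATTGT (-0.555 with the replicate block, -0.294 to 2.03 with a library left out), SOX CTTTGT (-0.300 at 250 bp, -0.398 with the block, -0.667 to 1.64), the SOX-OCT core (0.0901 at 250 bp, 0.168 at equal peak number, -0.666 to 0.424), GATA (-0.413 to 0.0298), ETS (0.00406 at equal peak number, 0.0127 with the block, -0.0502 to 0.0223) and the GC box (-0.0129 to 0.480), and the cause was not tested. In sets at equal peak number, an alternative chosen after seeing the data, TEAD was in 31.6% of SOX2+-only and 12.8% of naive-only regions and TCF/LEF in 2.11% and 13.7%.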

Other observations

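The SOX2 peaks of DP cells held the GATA string (AGATAA) in 28.9, 29.7 and 19.2% of A, A1 and B, while the 7 SOX2 lists compared above held it in 10.7 to 12.0%. In one-sided regions the same string was in 14.4% of SOX2+-only and 13.2% of naive-only windows. The ESRRB string was in 3.68% (2.39 to 5.38%) of the shared regions that ranked higher in every SOX2+ library and in 0.909% (0.334 to 1.97%) of those that ranked lower, while in one-sided regions it was in 2.24% and 1.16%. The OTX string was in 7.79% and 4.85% of these shared regions.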
